A study of Mus musculus with 14 samples.

Results

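The genes described here are 9 genes of the blood vessel lining, Pecam1, Cdh5, Kdr, Flt1, Tek, Tie1, Vwf, Thbd and Nos3, together with Vegfa, the growth factor that acts on them. They were chosen by name, as a list of 10 symbols, with earlier results of these data known. They make up 10 of the 19937 genes measured. Each was read by 1 probe set, a group of array probes summarised to a single log2 value. All 10 lay above the array background, the mean level of olfactory and vomeronasal receptor genes, in all 14 arrays.

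RNA from visceral fat, the epididymal fat pad of 14 male C57BL6/J mice, was measured on 1 Affymetrix array per sample. The animals were wild type (WT) or carried the genotype named EKO in the labels, which concerns apolipoprotein E. From 8 weeks of age they ate a normal diet (ND) or a Western diet, labelled HFD and stated to hold 42% milk fat, for 24 weeks. There were 3 WT ND, 3 WT HFD, 4 EKO ND and 4 EKO HFD arrays. Apoe, the check of the genotype labels, was 13.41 ± 0.24 (SD, n = 3) and 13.39 ± 0.26 (n = 3) in WT on ND and HFD. In EKO it was 9.74 ± 0.22 (n = 4) and 10.04 ± 0.19 (n = 4), with no overlap between genotypes on either diet. The arrays fell into a set of 5 with higher background (6.75 to 6.84) and a set of 9 with lower background (6.29 to 6.56). Every group held arrays of both sets. The higher set held 1 of 3 WT ND, 1 of 3 WT HFD, 1 of 4 EKO ND and 2 of 4 EKO HFD arrays. In a homogenised tissue, fewer cells of a type and less RNA per cell cannot be told apart, and this holds for all values given here.

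Endothelial cells line every vessel, hold together through adhesion proteins such as PECAM1 and VE-cadherin, and respond to VEGF and angiopoietin signals from the surrounding tissue. In fat they pass fatty acids to adipocytes, and adipocytes and macrophages are sources of VEGF-A. The endothelium also keeps blood from clotting: thrombomodulin, the product of Thbd, binds thrombin at the cell surface and turns it towards activation of protein C, an anticoagulant enzyme. Thrombomodulin is not restricted to endothelium, since mesothelial cells, which cover the fat pad, and some myeloid cells also carry it.

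The RefSeq promoter table (GRCm38.p6) held 6 promoters of 5 of the 10 genes, those of Kdr, Flt1, Tek, Tie1 and Vegfa. The Kdr and Tek promoters are shown because these receptor genes, besides Thbd, were the members whose WT arrays did not overlap between the diets. Each runs 5′ to 3′ over 300 bases around the transcription start, most of them upstream of it. Capitals mark GGAA, the core that ETS factors bind, or its reverse complement TTCC. Kdr lies on the minus strand at chr5:75978406-75978705 and Tek on the plus strand at chr4:94739039-94739338.
Kdr: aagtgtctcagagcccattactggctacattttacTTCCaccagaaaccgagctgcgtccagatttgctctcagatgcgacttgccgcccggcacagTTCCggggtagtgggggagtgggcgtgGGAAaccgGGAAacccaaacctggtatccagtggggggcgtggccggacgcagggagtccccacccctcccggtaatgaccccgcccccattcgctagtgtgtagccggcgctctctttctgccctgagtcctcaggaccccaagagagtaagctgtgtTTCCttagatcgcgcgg
Tek: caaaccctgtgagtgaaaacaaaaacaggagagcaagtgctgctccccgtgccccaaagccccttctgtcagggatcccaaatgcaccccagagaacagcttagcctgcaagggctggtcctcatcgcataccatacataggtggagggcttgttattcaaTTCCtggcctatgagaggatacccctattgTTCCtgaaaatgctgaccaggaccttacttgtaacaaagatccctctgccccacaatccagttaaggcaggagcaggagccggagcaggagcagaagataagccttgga
The Kdr window held 5 matches to GGAA on either strand and the Tek window held 2. At least 1 match stood in 96.0% of the 32851 promoters of the same length in the table, with a median of 3 matches. CACCC, the core bound by KLF factors, stood in 57.5% of all promoters and in all 6 member promoters, with 1 match each in Kdr, Flt1 and Tek and 3 in Tie1. ACGTG, the hypoxia element core, stood in 19.6% of all promoters and in 1 of the 6, the Vegfa window at chr17:46025114-46025413. The other Vegfa window, at chr17:46032328-46032627 and further upstream on the minus strand, held 0 matches. These matches describe letters in the window and are not binding sites.

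Thbd was the member that moved with the diet. On ND the WT arrays read 11.43, 12.05 and 12.16 (log2 level), and on HFD they read 10.07, 10.46 and 10.40. Every WT array on HFD lay below every WT array on ND, with about 1 log2 unit between the nearest pair. The mean fell from 11.88 ± 0.39 (SD, n = 3) to 10.31 ± 0.21 (n = 3), a log2 difference of -1.57 ± 0.29 (SE; 95% confidence interval -2.19 to -0.95). This is a 2.97-fold lower level (interval 1.93 to 4.57), with an adjusted p of 0.00569 in the limma fit over all 14 arrays. The test adjusts over all 19937 genes, of which 5.49% passed in either direction and 2.30% passed as lower. Of the members, 1 of 10 passed, and the same 1 was the only member under 0.05 before adjustment, as were 16.9% of all genes. The call held in all 17 alternative fits, with adjusted p up to 0.0345 and differences from -1.79 to -1.43.

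In EKO the Thbd arrays read 12.10, 10.84, 11.99 and 12.00 on ND, and 10.67, 11.33, 11.12 and 11.28 on HFD. ND replicates 1, 3 and 4 were higher than all HFD arrays, while ND replicate 2 fell within the HFD range, so the groups overlapped. The means were 11.73 ± 0.60 (n = 4) on ND and 11.10 ± 0.30 (n = 4) on HFD, a difference of -0.63 ± 0.25 (SE; interval -1.17 to -0.092). Its unadjusted p was 0.0249 and its adjusted p 0.946, so the difference did not pass. Without EKO ND replicate 2 it was -0.93 (adjusted p = 0.196). Within the arrays of lower background it was -0.72 ± 0.082 (adjusted p = 0.125).

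Between genotypes on ND, Thbd differed by -0.15 ± 0.27 (interval -0.73 to 0.43; adjusted p = 1.0), and the sign turned to 0.15 without EKO ND replicate 2. On HFD the 4 EKO arrays all lay above the 3 WT arrays. There the difference was 0.79 ± 0.27 (interval 0.21 to 1.37), a 1.73-fold higher level in EKO with an adjusted p of 0.113, short of the threshold. The difference between the diet effects, EKO minus WT, was 0.94 ± 0.39 (interval 0.12 to 1.76; adjusted p = 0.369), so a dependence of the diet effect on genotype was not called. The WT HFD arrays enter both the diet comparison in WT and the genotype comparison on HFD, so these values are not independent of each other.

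Array background moved with Thbd within groups: in all 4 groups the lowest Thbd array belonged to the set of higher background. With the background set as a block, the diet difference was -1.57 ± 0.16 in WT (adjusted p = 7.68e-05) and -0.47 ± 0.14 in EKO (adjusted p = 0.47). Within the lower background arrays it was -1.67 ± 0.09 in WT (adjusted p = 3.61e-05). That fit leaves out 1 of the 3 arrays in each WT group, 1 of the 4 in EKO ND and 2 of the 4 in EKO HFD. Its small SEs, here and below, thus rest on few arrays per group. The genotype difference on HFD, not called in the fit without the block, was 0.90 ± 0.15 with it (adjusted p = 0.00225) and 0.88 ± 0.09 within the lower background arrays (adjusted p = 0.00116). Likewise the difference between the diet effects was 1.10 ± 0.21 with the block (adjusted p = 0.0213) and 0.95 ± 0.12 within the lower background arrays (adjusted p = 0.00885).

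**Figure D1:**
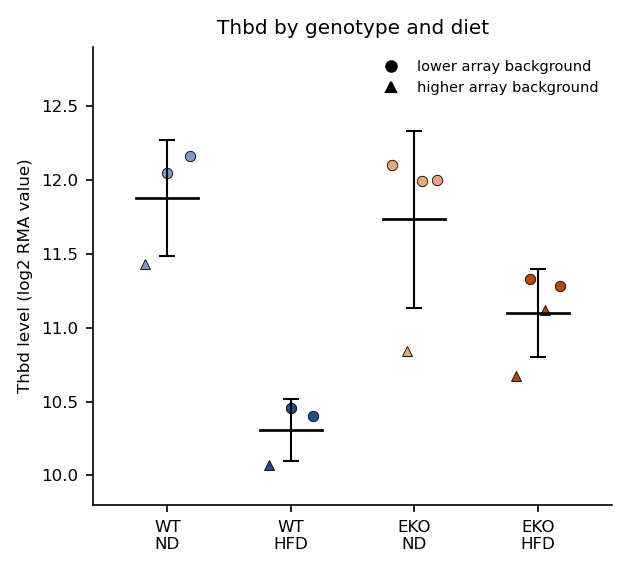
Thbd log2 level (RMA value, y axis) in each array by genotype and diet, with horizontal lines at group means and bars of 1 SD; triangles are arrays of higher background. The 3 WT HFD arrays sit between 10.07 and 10.46, under all other arrays, and the lowest array of each group is a triangle.

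The junction genes did not pass in WT. Pecam1, which encodes the adhesion protein PECAM1 (CD31), read 11.05, 10.97 and 11.02 on ND and 11.02, 11.01 and 10.69 on HFD. Only HFD replicate 3 lay apart, below the rest, and the groups overlapped. The difference was -0.10 ± 0.14 (interval -0.40 to 0.19; adjusted p = 0.869). Cdh5, which encodes VE-cadherin, read 11.96, 11.67 and 11.89 on ND and 11.96, 11.80 and 11.41 on HFD, with HFD replicate 3 again lowest. Its difference was -0.12 ± 0.15 (interval -0.44 to 0.21; adjusted p = 0.859).

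The VEGF genes also stayed short of the threshold. Vegfa ranged over 10.57, 11.46 and 11.06 on ND in WT and 10.75, 11.05 and 10.84 on HFD, so the HFD arrays lay inside the ND range. The difference was -0.15 ± 0.20 (interval -0.58 to 0.28; adjusted p = 0.866). Kdr, encoding the main signalling receptor VEGFR2, read 10.38, 10.43 and 10.23 on ND and 10.21, 10.18 and 10.04 on HFD. All ND arrays were higher than all HFD arrays, though the nearest, at 10.23 and 10.21, almost met. The Kdr difference was -0.20 ± 0.12 (interval -0.46 to 0.051; adjusted p = 0.457). Flt1, encoding VEGFR1, which binds VEGF-A and limits its access to VEGFR2, read 10.15, 10.46 and 10.34 on ND and 10.19, 10.24 and 10.08 on HFD. Its groups overlapped, with a difference of -0.15 ± 0.12 (interval -0.40 to 0.11; adjusted p = 0.687).

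Tek encodes TIE2, the angiopoietin receptor, and Tie1 its partner receptor. In WT, Tek read 10.25, 10.36 and 10.44 on ND and 10.08, 10.20 and 10.14 on HFD. The Tek groups did not overlap, but the difference of -0.21 ± 0.12 (interval -0.46 to 0.048) had an adjusted p of 0.446. As with Thbd, the lowest Tek array of each of the 4 groups was one of higher background. Tie1 read 9.62, 9.78 and 9.85 on ND and 9.62, 9.77 and 9.48 on HFD, with overlapping groups and a difference of -0.13 ± 0.15 (interval -0.45 to 0.18; adjusted p = 0.817). Counting Thbd, 3 of 10 members had WT diet groups that did not overlap, all lower on HFD, against 11.3% of all genes lower and 20.0% in either direction.

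Nos3, the endothelial nitric oxide synthase, read 9.67, 10.23 and 9.66 in WT on ND and 9.55, 10.08 and 9.93 on HFD. Both groups spread over the same range, and the difference was -0.0018 ± 0.17 (interval -0.36 to 0.35; adjusted p = 1.0). Vwf, which encodes the clotting and platelet adhesion protein von Willebrand factor, read 9.58, 10.28 and 9.79 on ND and 9.62, 9.60 and 9.58 on HFD. The ND arrays were spread and the HFD arrays close together at the low end of that spread, with a difference of -0.28 ± 0.18 (interval -0.68 to 0.11; adjusted p = 0.52). The median difference of the 9 members other than Thbd was -0.15, and all 9 were below 0, against a median of -0.02 over all genes. The signs of Pecam1, Cdh5, Nos3 and Vegfa turned in at least 1 alternative fit, with their highest values at 0.0056, 0.043, 0.28 and 0.065; of the scalings, median centring turned Nos3. The arrays of a group also moved together across genes: WT HFD replicate 3 was the lowest of its group for 6 of 8 endothelial members besides Thbd, and EKO HFD replicate 4 the highest for 7 of 8.

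**Figure D2:**
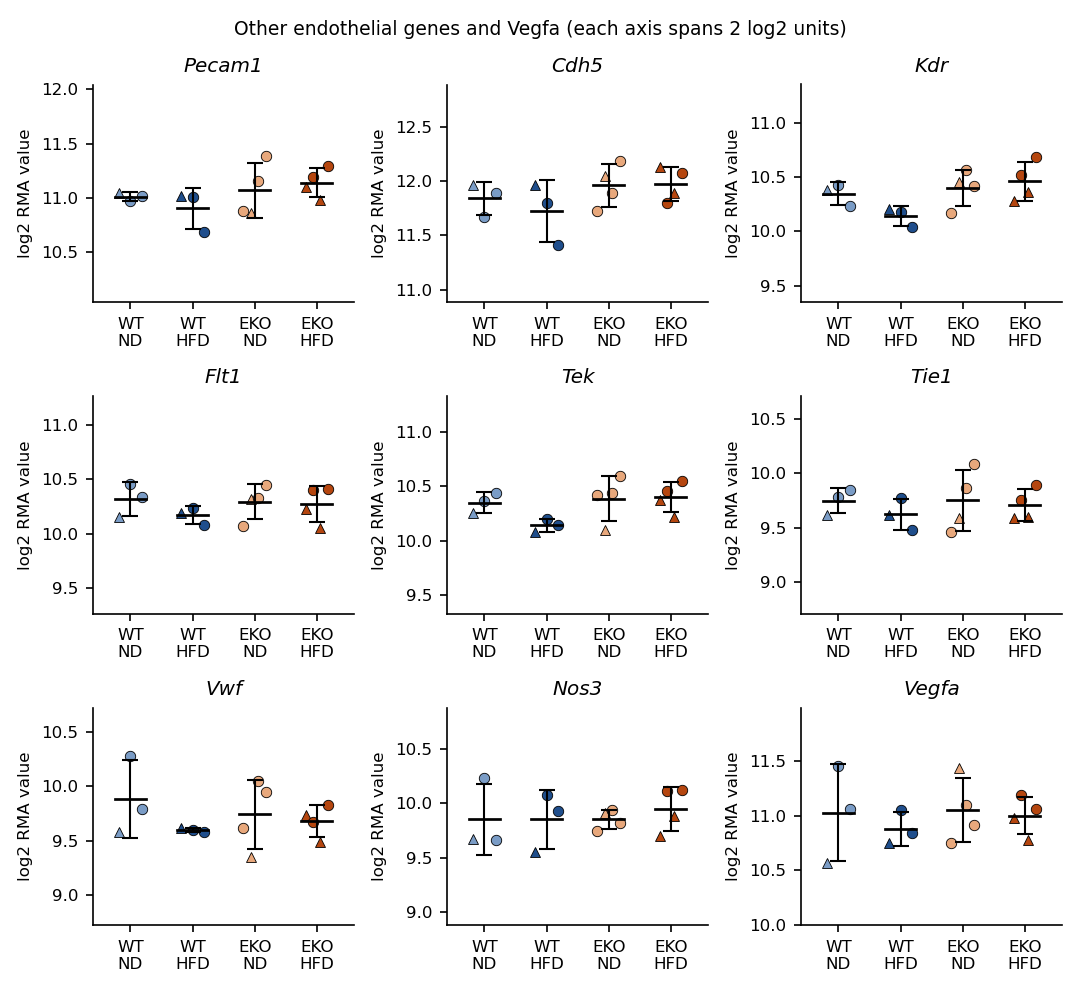
Log2 level (RMA value, y axis) of the 9 members other than Thbd in each array by genotype and diet; lines are group means, bars 1 SD, triangles arrays of higher background, and every axis spans 2 log2 units. Kdr and Tek are the panels in which the WT ND and WT HFD arrays do not overlap.

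In EKO the diet moved none of the 10 members past the threshold. The limma fit called 0.0% of all genes in this comparison, the groups of 0 members and 2.56% of all genes were apart, and 1 member, Thbd, was under 0.05 before adjustment, against 4.43% of all genes. The 9 other members differed by -0.059 (Vwf) to 0.10 (Nos3), with intervals that together ran from -0.43 to 0.40. Pecam1 read 10.88, 10.86, 11.16 and 11.39 in EKO on ND and 11.10, 11.19, 10.98 and 11.29 on HFD. Kdr read 10.17, 10.45, 10.56 and 10.42 on ND and 10.28, 10.52, 10.36 and 10.68 on HFD. Tek read 10.42, 10.10, 10.44 and 10.59 on ND and 10.37, 10.46, 10.22 and 10.55 on HFD. For these adhesion and receptor genes the EKO diet groups overlapped throughout. The differences were 0.069 ± 0.12 for Pecam1, 0.059 ± 0.10 for Kdr and 0.011 ± 0.10 for Tek. Vegfa ran from 10.75 to 11.44 in EKO on ND and from 10.78 to 11.19 on HFD. Vwf ran from 9.35 to 10.05 on ND and from 9.49 to 9.83 on HFD. In both, the HFD arrays lay inside the ND range, which was also so for Cdh5 (11.72 to 12.18 on ND, 11.80 to 12.13 on HFD) and Tie1 (9.46 to 10.09 on ND, 9.59 to 9.89 on HFD). Nos3 was the reverse, with HFD arrays from 9.70 to 10.12 around ND arrays from 9.75 to 9.94. Flt1 ran from 10.07 to 10.45 on ND and from 10.05 to 10.41 on HFD.

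Between genotypes on ND, 0 of 10 members passed in the limma fit, 0 were under 0.05 before adjustment (1.13% of all genes), and the groups of 0 members were apart (1.72% of all genes). The differences ranged from -0.15 (Thbd) to 0.12 (Cdh5). Only 0.00502% of all genes passed here, which is Apoe alone.

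Between genotypes on HFD, 0 of 10 members passed in the limma fit, against 5.69% of all genes (1.64% higher and 4.05% lower), although all 10 had higher means in EKO; Nos3 alone turned its sign in an alternative, to -0.05 without WT HFD replicate 1. The 9 besides Thbd were higher by 0.083 (Vwf) to 0.32 (Kdr), with a median of 0.12 against 0.033 for all genes. Kdr, the VEGF-A receptor, was 10.46 ± 0.18 (n = 4) in EKO and 10.14 ± 0.09 (n = 3) in WT, a difference of 0.32 ± 0.11 (interval 0.078 to 0.55; adjusted p = 0.122). Tek, the angiopoietin receptor, was 10.40 ± 0.14 (n = 4) in EKO and 10.14 ± 0.061 (n = 3) in WT, a difference of 0.26 ± 0.11 (interval 0.019 to 0.49; adjusted p = 0.217). For Kdr, Tek and Thbd every EKO array exceeded every WT array on HFD, that is 3 of 10 members against 7.93% of all genes higher and 16.6% apart in either direction. These 3 were also the members under 0.05 before adjustment, a share of all genes that was 19.3%. Tek passed with the background set as a block whereas Kdr did not, and neither passed within the lower background arrays. Pecam1 and Cdh5 were higher by 0.23 ± 0.13 (adjusted p = 0.356) and 0.25 ± 0.14 (adjusted p = 0.365), with overlapping groups.

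The interaction, the difference between the diet effects of the genotypes, was called for 0 of 10 members, with 0.482% of all genes called. Thbd alone among them was under 0.05 before adjustment, as were 10.8% of all genes. All 10 were above 0, although Cdh5, Tie1, Nos3 and Vegfa turned in at least 1 alternative, and the 9 besides Thbd lay between 0.091 and 0.26 with adjusted p from 0.609 to 0.936.

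**Figure D3:**
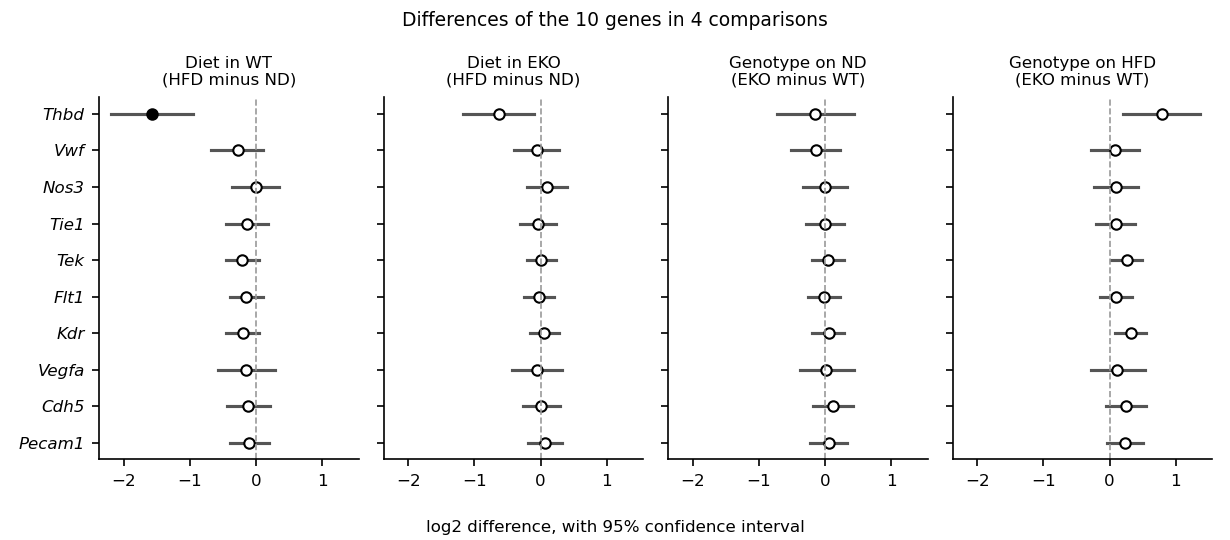
Log2 difference (x axis, with 95% confidence interval) of the 10 genes in each of 4 comparisons; the filled point passed at an adjusted p under 0.05 and open points did not. Thbd in the WT diet panel, at -1.57, is the only filled point, and all 10 points lie above 0 for genotype on HFD.

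Thbd was then set against the other endothelial genes within each array, by taking its log2 level minus the mean of Pecam1, Cdh5, Kdr, Tek and Tie1. This is a description, with no test. The mean of the 5 was itself 10.65, 10.64 and 10.68 in WT on ND and 10.58, 10.59 and 10.35 on HFD, apart by little. In EKO it ran from 10.53 to 10.93 on ND and from 10.61 to 10.90 on HFD, with overlap. In WT, Thbd minus this mean was 0.78, 1.41 and 1.48 on ND and -0.51, -0.13 and 0.05 on HFD. In EKO it was 1.57, 0.23, 1.21 and 1.06 on ND and -0.022, 0.59, 0.51 and 0.38 on HFD. The WT diet groups stayed apart, and the EKO diet groups overlapped through EKO ND replicate 2. The change from ND to HFD was -1.42 in WT and -0.65 in EKO, near the differences of Thbd itself. With the mean of 22 other endothelial genes in place of the 5 it was -1.52 in WT and -0.63 in EKO.

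Those 22 genes, among them Emcn, Esam, Cldn5, Erg and Robo4, gave 0 calls in each of the 5 comparisons in the limma fit. For genotype on HFD, alternative fits called up to 5 higher and up to 2 lower. There 3 of 22 were under 0.05 before adjustment in the limma fit, against 19.3% of all genes. For diet in WT, alternative fits called up to 1 in either direction. In the WT diet comparison 2 of 22 were under 0.05 before adjustment, against 16.9% of all genes. S1pr1, a receptor for sphingosine 1-phosphate that stabilises vessels, was one, at -0.37 ± 0.17 (adjusted p = 0.27). Ptprb, the phosphatase VE-PTP that acts on TIE2 and VE-cadherin, was the other, at -0.34 ± 0.16 (adjusted p = 0.286). Their median difference was -0.065 in the WT diet comparison and 0.13 for genotype on HFD, beside -0.02 and 0.033 over all genes. All 22 were above background in every group, as were the 9 endothelial members. The mesothelial and macrophage markers were above background in every group as well. The background is a mean level, and 4 of 8 epididymis markers also exceeded it in each group. In whole fat these levels do not show which cells a member's RNA came from. Lymphatic endothelial markers, with 5 of 6 above background, gave 0 of 6 calls in the WT diet comparison. Of these markers 2 of 6 were under 0.05 before adjustment, against 16.9% of all genes. All 6 were below 0 there, with a median of -0.30, and for diet in EKO 5 of 6 were below 0, with a median of -0.24 and 0 calls.

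Mesothelial markers moved with Thbd for diet in WT but not for diet in EKO. Of 14 markers, 11 fell in WT on HFD and 0 rose, with a median difference of -0.89. Among all genes 2.30% fell and 3.19% rose there. Of the 14, 6 fell without WT ND replicate 3 and 7 without WT HFD replicate 2 or with only the WT arrays fitted. The mean over the 14 markers was 9.83, 9.69 and 10.16 in the WT ND arrays and 9.06, 9.02 and 8.96 in the WT HFD arrays, which did not overlap. It was 9.52, 9.20, 9.73 and 9.70 in EKO on ND and 9.67, 9.38, 9.40 and 9.57 on HFD, which did. For diet in EKO, where the Thbd difference was -0.63, 0 of 14 passed in the limma fit and 1 was under 0.05 before adjustment; 7 lay above 0 and 7 below, with a median of 0.0018. Between genotypes on ND the median was -0.40, with 0 calls, beside -0.15 for Thbd. For genotype on HFD 2 of 14 were called higher in EKO, against 1.64% of all genes. All 14 were above 0 there, with a median of 0.51. The 2 calls fell to 0 without WT HFD replicate 2 or 3 and to 1 without EKO HFD replicate 1 or 4, and rose to 14 with array weights, 8 with the background block or with only the groups compared, 7 after quantile normalization and 5 of 13 without the dimmest 50% of genes. All 14 lay above background in every group. Upk1b and Upk3b, uroplakins of the mesothelial surface, fell by 1.42 and 1.17 on the log2 scale in WT (adjusted p = 0.00153 and 0.00213), and Krt19, a keratin, by 1.17 (adjusted p = 0.00213). Within groups the arrays did not order alike: the lowest Thbd array was the lowest for these markers in EKO on ND (replicate 2), the middle one in WT on ND, and the highest in WT and in EKO on HFD (9.06 and 9.67). When the mesothelial mean replaced the endothelial mean, the change of Thbd relative to it was -0.69 in WT and -0.60 in EKO. The part of mesothelial cells in the Thbd result was not tested.

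**Figure D4:**
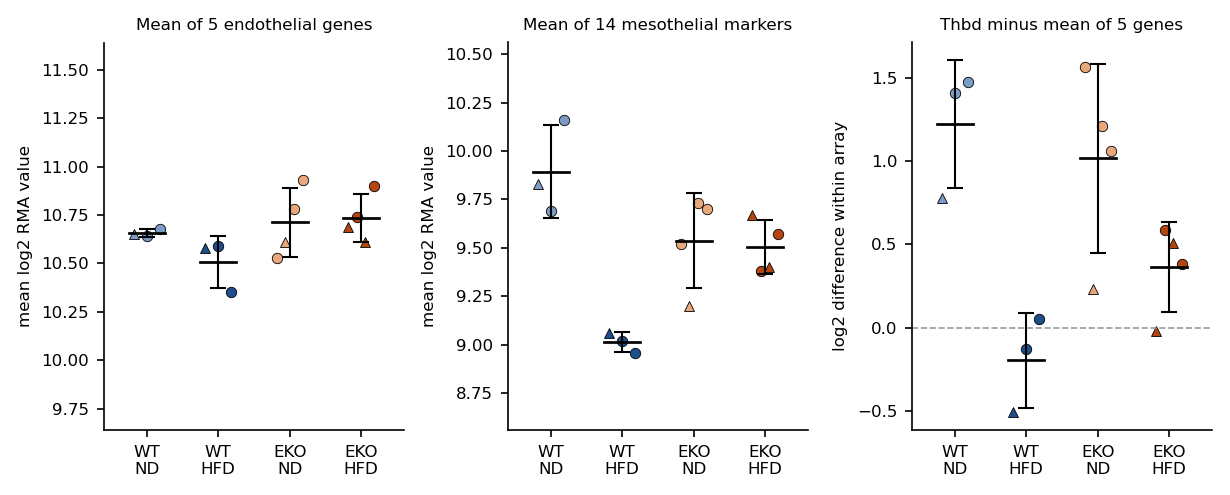
By array, the mean log2 level of Pecam1, Cdh5, Kdr, Tek and Tie1 (left), the mean of 14 mesothelial markers (middle) and Thbd minus the endothelial mean (right); lines are group means, bars 1 SD, triangles arrays of higher background. WT HFD arrays lie below WT ND arrays in each panel, by little in the left one, where the nearest are 10.59 and 10.64.

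Other cell types moved too, and their counts for diet in WT stand beside 3.19% of all genes higher and 2.30% lower. Macrophage markers rose in WT on HFD for 7 of 11, with a median difference of 1.26, and for 4 without WT HFD replicate 3. Their mean level ranged from 9.50 to 9.76 in WT ND and from 10.53 to 11.04 in WT HFD, against 9.18 to 10.17 and 9.55 to 10.05 in EKO on ND and HFD. All 11 were above background in every group. On HFD 7 of 11 were lower in EKO than in WT, against 4.05% of all genes. That count was 2 without WT HFD replicate 2 or 3, 3 without EKO HFD replicate 1, and 4 without EKO HFD replicate 3 or 4. Itgax, the integrin CD11c, rose by 2.15 ± 0.17 (adjusted p = 1.09e-05), and its diet effect differed between genotypes by -2.09 ± 0.22 (adjusted p = 0.000604). Dendritic cell markers rose for 3 of 8. The count was 1 without WT ND replicate 2 or WT HFD replicate 3, or with only the WT arrays fitted. The mean of these markers ranged from 8.29 to 8.42 in WT ND and 8.61 to 8.76 in WT HFD. Adipocyte markers fell for 3 of 10, for 1 without WT ND replicate 2 or 3 and for 0 without WT HFD replicate 3. With only the WT arrays fitted, 0 were called lower and 1 was called higher. Lep, the leptin gene, alone lay above 0 and was not called in the limma fit. Its mean was 12.52 in WT ND and 13.33 in WT HFD. Adipoq, the adiponectin gene, fell by 0.45 on the log2 scale (adjusted p = 0.0101). That call ended without WT HFD replicate 3 or with only the WT arrays fitted (adjusted p up to 0.0887). Among smooth muscle and pericyte markers 1 of 12 fell, the contractile gene Myh11 at -0.78 ± 0.19 (adjusted p = 0.0233). That call ended without WT ND replicate 2 or 3 or WT HFD replicate 2 or 3. It also ended with only the WT arrays fitted (adjusted p up to 0.112 over these fits). Epididymis markers gave 0 of 8 calls, with none under 0.05 before adjustment and 4 of 8 above background in each group. Whether these cell types contributed to the vascular genes described next was not tested.

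The genes most like Thbd over the 14 arrays were found by the root mean square difference of log2 levels after subtracting each gene's mean. They were Zfp185 (0.238), Steap2 (0.274), Ano1 (0.278), Trhde (0.327) and Ralgapa2 (0.349), where the root mean square of Thbd's own deviations was 0.686. Zfp185 averaged 9.97 in WT ND, 8.68 in WT HFD, 9.88 in EKO ND and 9.13 in EKO HFD. Ano1, a calcium-activated chloride channel, averaged 10.37, 9.15, 10.08 and 9.92 in the same order. No endothelial member was near: the closest, Vwf, was at 0.579, the 1395th of all genes in this order, and Tek was the 1402nd at 0.58. The measure is not scaled, so a gene that moved little lies near 0.686 whatever its pattern. It therefore cannot show whether the smaller changes of the members follow those of Thbd.

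The list of 19 measured genes of the protein C pathway and coagulation held 3 genes that rose and 1 that fell in WT on HFD. Among all genes 3.19% rose and 2.30% fell, and 16.9% were under 0.05 before adjustment. These shares stand beside every list count for diet in WT given below. Tfpi2, a Kunitz-type protease inhibitor of the matrix, rose most. It was 8.41 ± 0.28 (n = 3) in WT ND, 9.65 ± 0.13 (n = 3) in WT HFD, 8.46 ± 0.082 (n = 4) in EKO ND and 8.47 ± 0.20 (n = 4) in EKO HFD. The WT HFD arrays thus stood alone, with a difference of 1.24 ± 0.14 for diet in WT (adjusted p = 0.00023). The Tfpi2 diet effects differed between genotypes by -1.24 ± 0.19 (adjusted p = 0.00748), and both calls held in all alternative fits. F2r, the thrombin receptor PAR1, rose by 0.91 ± 0.21 (adjusted p = 0.0196), a call that ended on leaving out WT ND replicate 2 or 3 or WT HFD replicate 2 or 3 (adjusted p up to 0.118). F7, coagulation factor VII, rose by 0.55 ± 0.11 (adjusted p = 0.0109), and this call ended without WT HFD replicate 3 (adjusted p = 0.0565). Tfpi, the endothelial inhibitor of the tissue factor pathway, fell by 0.37 on the log2 scale with an SE of 0.10 (adjusted p = 0.044). That call ended without WT ND replicate 2 or 3 or any WT HFD replicate. It also ended with only the WT arrays fitted, with another prior, and within the lower background arrays (adjusted p up to 0.179 over these fits). For diet in EKO Tfpi differed by -0.41 ± 0.086, with groups that did not overlap, but this was not called (adjusted p = 0.436).

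On HFD the same 3 genes, Tfpi2, F2r and F7, were lower in EKO than in WT, by -1.18 ± 0.13 (adjusted p = 0.000179), -1.08 ± 0.19 (adjusted p = 0.00523) and -0.52 ± 0.11 (adjusted p = 0.0104). The F7 call ended without WT HFD replicate 3 (adjusted p = 0.0666). Procr, the endothelial protein C receptor that works with thrombomodulin, differed by -0.20 ± 0.13 for diet in WT (adjusted p = 0.533) and by 0.034 ± 0.12 for genotype on HFD (adjusted p = 0.912). Proc, protein C itself, which the liver makes, differed by 0.036 ± 0.11 for diet in WT (adjusted p = 0.969). Among 8 fibrinolysis genes 0 passed for diet in WT and 1 was under 0.05 before adjustment. Plau, the urokinase plasminogen activator, was lower in EKO on HFD by -0.83 ± 0.21 (adjusted p = 0.0289), not so without WT HFD replicate 2 or 3 or EKO HFD replicate 1 or 3 (adjusted p up to 0.197).

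In the nitric oxide pathway, 2 of 18 genes rose and 1 fell in WT on HFD while Nos3 itself differed by -0.0018 ± 0.17. Ddah1, which breaks down methylarginines that inhibit nitric oxide synthases, was 8.96 ± 0.33 (n = 3) in WT ND and 10.48 ± 0.23 (n = 3) in WT HFD. In EKO it was 8.85 ± 0.30 (n = 4) and 9.35 ± 0.093 (n = 4). The rise in WT was 1.52 ± 0.18 (adjusted p = 0.000379), and EKO on HFD was lower than WT by -1.12 ± 0.17 (adjusted p = 0.00168). Nostrin, which moves NOS3 away from the membrane, rose by 0.68 ± 0.12 (adjusted p = 0.00439), a call that ended when only the WT arrays were fitted (adjusted p = 0.0659). Its diet effects differed between genotypes by -0.79 ± 0.16 (adjusted p = 0.0432), but this call ended on leaving out any 1 of 12 arrays, all but WT ND replicate 3 and WT HFD replicate 1, and within the lower background arrays (adjusted p up to 0.15). Gucy1a1, a subunit of the nitric oxide receptor in vascular muscle, fell by 0.72 on the log2 scale with an SE of 0.14 (adjusted p = 0.007). The Ddah1 and Gucy1a1 calls for diet in WT held in all alternative fits.

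Among 9 leukocyte adhesion genes 2 rose in WT on HFD. Vcam1, the endothelial ligand of leukocyte integrins, rose by 0.59 ± 0.15 (adjusted p = 0.0376). This call ended on leaving out any 1 of the 6 WT arrays. It also ended with only the WT arrays fitted and within the lower background arrays (adjusted p up to 0.172 over these fits). Selplg, the selectin ligand carried by leukocytes, rose by 0.85 ± 0.20 (adjusted p = 0.0228), but not without WT ND replicate 1 or 2 or WT HFD replicate 2 or 3 (adjusted p up to 0.133). Both were lower in EKO than in WT on HFD, by -0.54 ± 0.14 for Vcam1 (adjusted p = 0.0396) and -0.73 ± 0.19 for Selplg (adjusted p = 0.0347). These calls also rested on single arrays. That of Vcam1 ended without any 1 of the 7 HFD arrays (adjusted p up to 0.174). It ended as well after quantile normalization and within the lower background arrays. That of Selplg ended without WT HFD replicate 2 or 3 or EKO HFD replicate 1, 3 or 4 (adjusted p up to 0.225).

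**Figure D5:**
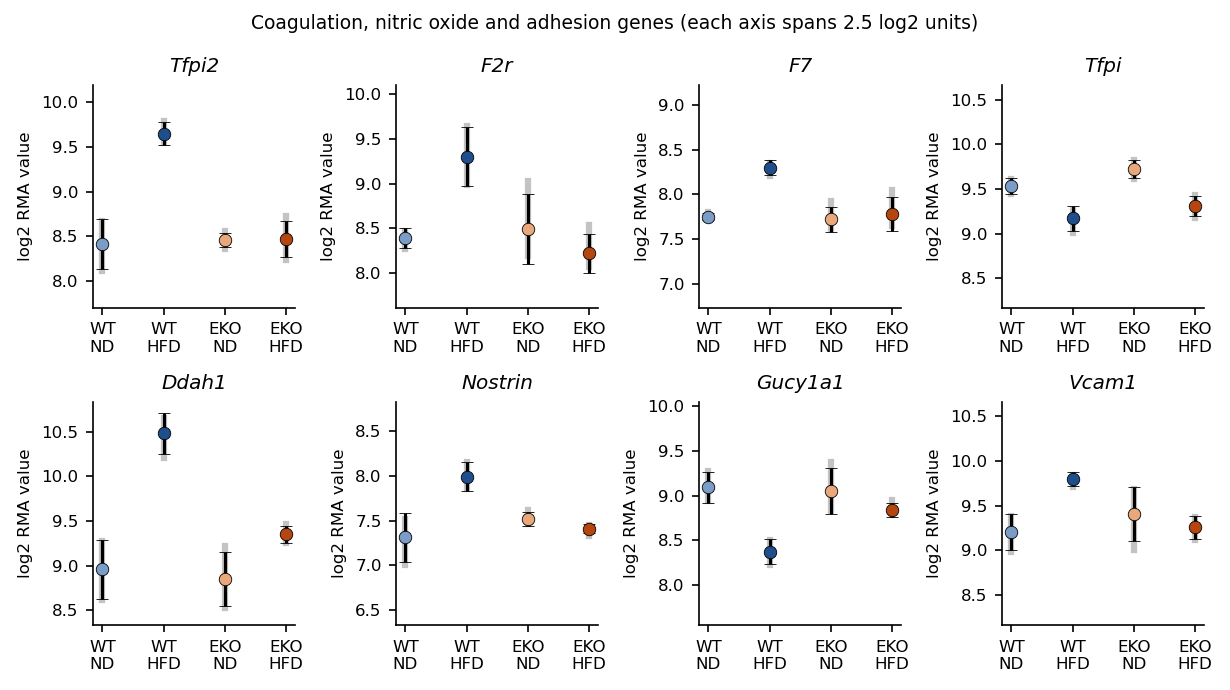
Log2 level (RMA value, y axis) of 8 coagulation, nitric oxide and adhesion genes by group; points are means, black bars 1 SD, grey bars the range over arrays, and every axis spans 2.5 log2 units. Tfpi2 and Ddah1 in WT HFD, at 9.65 and 10.48, lie above all other groups.

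Of 14 KLF factors and other regulators of Thbd, 1 fell in WT on HFD. This was Klf15, a factor of adipocyte and muscle metabolism, at -0.76 ± 0.18 (adjusted p = 0.024). The call was lost without WT ND replicate 2 or WT HFD replicate 2 or 3. It was also lost with only the WT arrays fitted (adjusted p up to 0.115 over these fits). Klf2 and Klf4, the flow-responsive factors known to raise Thbd and Nos3 in endothelium, differed by -0.37 ± 0.16 (adjusted p = 0.262) and -0.21 ± 0.17 (adjusted p = 0.651), with overlapping groups. In EKO their diet differences were -0.17 ± 0.14 (adjusted p = 0.946) and -0.12 ± 0.14 (adjusted p = 0.947).

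VEGF ligands and receptors outside the members gave 0 of 7 calls for diet in WT. Before adjustment 3 of 7 were under 0.05, against 16.9% of all genes. Vegfd, a ligand of lymphatic vessels, was lower in EKO than in WT on HFD by -0.59 ± 0.10 (adjusted p = 0.0044), in all alternative fits. In the angiopoietin and Tie list 1 of 7 rose and 1 fell for diet in WT. Svep1, an extracellular protein known to bind TIE1, rose by 0.60 ± 0.16 (adjusted p = 0.0458), and Foxo1, a factor restrained by TIE2 signalling, fell by 0.42 on the log2 scale (adjusted p = 0.0494). Leaving out any 1 of the 6 WT arrays ended both calls (adjusted p up to 0.151 and 0.18). Both also ended with only the WT arrays fitted and within the lower background arrays. The Foxo1 call ended as well after median centring and with another prior. For diet in EKO Foxo1 differed by -0.48 ± 0.10, with groups that did not overlap, but this was not called (adjusted p = 0.436). For genotype on HFD Svep1 was lower in EKO by -0.75 ± 0.15 (adjusted p = 0.0105), but not within the lower background arrays (adjusted p = 0.0752).

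Of 17 hypoxia genes, 1 was called higher and 1 lower in WT on HFD, beside 3.19% and 2.30% of all genes. Their median difference was -0.023 against -0.02 over all genes, but they ranged both ways, from -0.67 to 0.79. Before adjustment 6 of 17 were under 0.05, against 16.9% of all genes. For genotype on HFD it was 8 of 17 (19.3% of all genes) and for the interaction 7 of 17 (10.8%). Hif1a, the hypoxia-inducible factor subunit, rose by 0.79 ± 0.18 (adjusted p = 0.021), and Ndrg1, one of its targets, fell by 0.67 on the log2 scale (adjusted p = 0.031). The Hif1a call ended without WT ND replicate 2 or 3 or WT HFD replicate 2 or 3. The Ndrg1 call ended without WT ND replicate 1 or 3 or WT HFD replicate 2 or 3. Both calls also ended with only the WT arrays fitted (adjusted p up to 0.104 and 0.159 over these fits). Hif1a was lower in EKO than in WT on HFD by -0.88 ± 0.17 (adjusted p = 0.00868), a call lost without WT HFD replicate 2 or 3 (adjusted p up to 0.0617). Among 11 other regulators of Vegfa and vessel growth 2 fell, the growth factor gene Fgf2 by 0.68 (adjusted p = 0.0369) and the guidance cue Sema3a by 0.42 on the log2 scale (adjusted p = 0.0349). The Fgf2 call ended without WT ND replicate 1 or 3 or any WT HFD replicate (adjusted p up to 0.176). The Sema3a call ended without WT ND replicate 2 or 3 or any WT HFD replicate (adjusted p up to 0.175). Both also ended with only the WT arrays fitted, that of Fgf2 within the lower background arrays and that of Sema3a after quantile normalization. For diet in EKO Fgf2 differed by -0.45 ± 0.15 with overlapping groups, which was not called (adjusted p = 0.917).

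Genes of vessel type and lipid transport complete the lists. Nr2f2, a transcription factor of venous identity, fell in WT on HFD by 0.58 on the log2 scale (adjusted p = 0.0378), 1 of 14 arterial and venous genes. Without WT ND replicate 2 or 3 or any WT HFD replicate it did not pass. Nor did it pass with only the WT arrays fitted (adjusted p up to 0.178 over these fits). Fabp5, a fatty acid binding protein of capillary endothelium, adipocytes and macrophages, rose by 1.14 ± 0.25 (adjusted p = 0.0148), 1 of 12 capillary lipid genes. It did not pass without WT ND replicate 3 or WT HFD replicate 2 or 3 (adjusted p up to 0.093). Over all 23 lists, cell type markers included, 244 genes were measured. In the limma fit 45 passed for diet in WT and 32 for genotype on HFD, against 5.49% and 5.69% of all genes. The 45 include 11 mesothelial and 7 macrophage markers, and the 32 include 7 macrophage and 3 dendritic cell markers. Neither count thus describes vessel genes alone. The lists were written with earlier results of these data known, so the counts do not test whether listed genes moved more than others. For diet in EKO and for genotype on ND 0 passed. There 28 and 18 were under 0.05 before adjustment, against 4.43% and 1.13% of all genes. For the interaction 3 of the 244 passed, Tfpi2, Nostrin and Itgax.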

How the data were processed

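The values deposited by the authors are log2 RMA output, per the submitters' processing notes, in 1 table of probe sets by arrays. The RMA version and settings and the genome build of the array were not given in the sources used here. RMA corrects background, quantile normalizes and summarises probes, which would hide a shift common to most genes. Of 34760 rows, 21640 had 1 gene symbol in the platform annotation, 1321 had several and 11799 had none; 21553 matched a RefSeq gene by Entrez ID. The probe set with the highest mean was kept for the 954 genes with several sets.

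The labels gave the groups and call the replicates biological. Levels are log2 with SD, and differences are contrasts with SE in a model of 1 mean per group (limma 3.58.1, R 4.3.3, lmFit and eBayes, 10 residual degrees of freedom). A gene passed at a two-sided Benjamini-Hochberg adjusted p under 0.05 over 19937 genes, with no filter. Array background was the mean of 1204 olfactory and vomeronasal receptor rows, split at the largest gap. The fit was tested on simulated data. Alternatives were other scalings, priors, array weights and filters, the mean of a gene's probe sets, only the groups compared, each replicate left out, the replicate number as a block, and the background set. Replicate numbers were not used as pairs in the main fit. Correlations of same-numbered deviations ran from -0.593 to 0.644, and for the WT diet groups they were 0.458, 0.187 and 0.00889.

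The members, lists and tests were chosen with earlier results of these data known. Named genes are the 10 members, Apoe, up to 3 genes per direction in each list that passed (at most the 2 of smallest p where none did), and the 5 genes most like Thbd; predicted genes and RIKEN clones were passed over. Procr, Proc, Klf2 and Klf4 are named for their roles, after their values were seen. From the longer lists only part of the genes that the rule allows is given. Promoter sequences come from RefSeq. Arrays limit the precision by their number.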

Additional observations from a re-analysis of the deposited data

Results flagged for a closer look

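Thbd in EKO on ND had 1 array far from the others: replicate 2 read 10.84 (log2 level), with the next array at 11.99, a gap that is 0.914 of the group's whole range. The critical value for 4 arrays passes about 1 in 20 groups by chance, and 20 sets were checked, 10 genes in each EKO diet group. The array belongs to the set of higher background and has the lowest mesothelial marker mean of its group, 9.20 against 9.52 to 9.73. In the other groups the lowest Thbd array also belongs to the set of higher background, but for the mesothelial mean it is the middle array in WT on ND and the highest in WT on HFD (9.06) and EKO on HFD (9.67). The part of either in the low Thbd value was not tested.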

How the results depend on the processing

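The Thbd call for diet in WT held in all 17 alternatives; leaving out 1 replicate moved the difference between -1.79 and -1.43. With the replicate block it was -1.57 (adjusted p = 0.0075), and no member's call changed in any comparison under that block. The member counts for diet in WT, diet in EKO and genotype on ND kept their values, 1, 0 and 0, in every alternative run. For genotype on HFD the count of 0 became 3 after quantile normalization (Kdr, Tek and Thbd), 4 with array weights (also Pecam1), 2 with the background block (Tek and Thbd), and 1 (Thbd) both with only the groups compared and within the lower background arrays. These settings also moved the number of all genes called there from 1134 to 1845, 6789, 2033, 912 and 1616 in the same order. For the interaction the count of 0 became 1 (Thbd) with array weights, the background block and the lower background arrays, where 2338, 320 and 566 of all genes were called in place of 96. The Thbd change in WT relative to other genes was -0.69 against the mesothelial mean, an alternative chosen after seeing the data. Of the 33 listed calls named for diet in WT, 10 held in every alternative; 22 ended without WT HFD replicate 3 and 19 when only the WT arrays were fitted. No called value turned its sign. The causes of these moves were not tested. With 3 or 4 arrays per group, the 95% intervals of the 9 members besides Thbd were wide. For diet in WT the lowest bound was -0.68, that of Vwf. A difference inside a member's interval is not excluded for that member.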
